A study of Mus musculus with 8 samples.

Results

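C1 was a cluster of mouse mammary epithelial cells, read as 1 barcode each, that the authors named hormone-sensing progenitors. It lay almost wholly in mice studied after involution. Its members were taken from the authors' annotation as all cells with the cluster number C1 that passed every quality filter. They numbered 492 in the 2 post-involution (PI) libraries, 107 in the mouse PI 1 and 385 in the mouse PI 2, of 25009 cells passing the filters in the whole series. Only 1 further C1 cell was found, in a nulliparous mouse. The study sequenced mammary cells of 8 C57BL/6N mice, with 1 mouse per library and 2 mice at each of 4 stages. The PI glands were taken 11 days after natural weaning. The nulliparous (NP) mice, used here as the other stage, were 8 weeks old, and mice at day 14.5 of gestation (G) are used here for 1 comparison cluster. By vaginal smear PI 2 and both NP mice were in oestrus and PI 1 was in dioestrus. In all of these mice EpCAM+ cells were sorted, and cells carrying CD31, CD45 or Ter119, dead cells and doublets were gated out at the sorter.

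The luminal layer of the mammary gland holds a hormone-sensing branch and a secretory branch. Hormone-sensing cells carry the receptors for oestrogen, progesterone and prolactin and signal to their neighbours through secreted ligands. Luminal progenitors carry genes such as Aldh1a3, Cd14, Kit and Elf5. The paper proposes that they give rise to both branches, the secretory one ending in the alveolar cells that make milk. It places hormone-sensing progenitors as an intermediate state between luminal progenitors and differentiated hormone-sensing cells. After weaning the alveoli regress, a process known for acute phase proteins, lysosomal enzymes and tissue remodelling. A barcode that holds transcripts of luminal progenitors and of differentiated hormone-sensing cells can come from a single cell or from a pair of cells caught in 1 droplet. The comparison of C1 with the luminal progenitor cluster C7 and the differentiated hormone-sensing cluster C3 of the same mice addresses how near C1 lay to the sum of such a pair. A single cell in an intermediate state can also lie between C7 and C3.

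The PI libraries held 1449 and 4192 cells that passed the filters, with 13306760 and 29690042 unique molecular identifiers (UMIs, each marking 1 captured transcript). The NP libraries held 2166 and 2057 cells with 25767217 and 23062273 UMIs. Before filtering the 2 PI libraries shared 11 barcodes. The authors' filters removed barcodes shared between samples. That 0 C1 cells carried a barcode found in another library of the series was therefore fixed by the selection. Levels are given as CPM, the UMIs of a gene per 1000000 UMIs summed over the cells of 1 cluster in 1 mouse. The clusters were built by the authors from these same counts, so the values of C1 beside C7 and C3 are a description with no test. The basal cluster C12, with 27 and 53 cells in the PI mice, served as a cell type outside the luminal layer.

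All 5 genes that mark C1 in its description were present in it, each at a level between those of C7 and C3 in both mice. Prlr, the prolactin receptor, stood at 1359.7 and 1643 CPM in C1 of PI 1 and PI 2, at 72.1 and 92.5 CPM in C7 and at 2533 and 3079 CPM in C3. Cited1, a transcriptional co-regulator of hormone-sensing cells, stood at 754 and 403 CPM in C1, 14.7 and 8.79 CPM in C7 and 1550.0 and 894 CPM in C3. The 2 hormone-sensing genes were thus lower in C1 than in C3 and far higher than in C7. Aldh1a3, a retinaldehyde dehydrogenase of luminal progenitors, stood at 265 and 129.9 CPM in C1, 396 and 287 CPM in C7 and 0.600 and 1.22 CPM in C3. Cd14, a co-receptor for bacterial lipopolysaccharide, stood at 437 and 269.8 CPM in C1, 885 and 572 CPM in C7 and 30.9 and 25.9 CPM in C3. Csn2, which encodes the milk protein beta-casein, stood at 648 and 763 CPM in C1, 1296 and 1683 CPM in C7 and 6.90 and 9.27 CPM in C3. Aldh1a3, Cd14 and Csn2 were therefore lower in C1 than in C7 and many times higher than in C3, the reverse order of the hormone-sensing genes. In the basal cluster C12 Csn2 was at 8.96 and 21.1 CPM, close to C3, while Prlr was at 0 and 679.9 CPM, so that C12 of PI 2 did not lack Prlr.

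**Figure D1:**
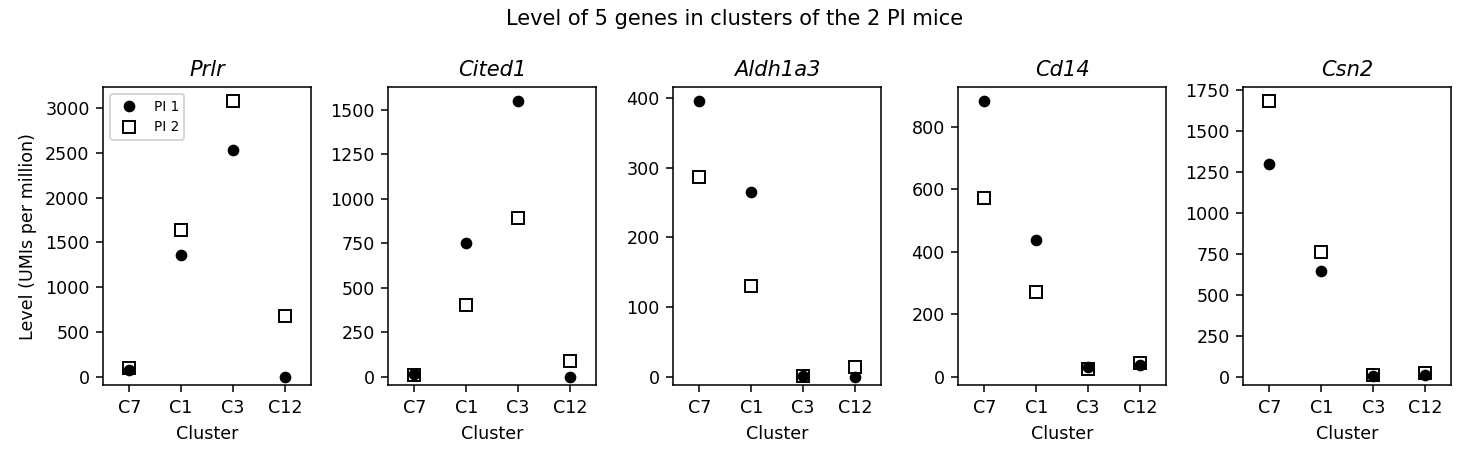
Levels in CPM (vertical axes, a separate scale for each gene) of Prlr, Cited1, Aldh1a3, Cd14 and Csn2 in clusters C7, C1, C3 and C12 (horizontal axes); filled circles are PI 1 and open squares PI 2. For every gene and mouse the C1 value lies between the C7 and the C3 value.

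Csn2 lies on chromosome 5 at chr5:87692624-87699630 (GRCm38, minus strand), Csn1s1 beside it at chr5:87666208-87682578 (plus strand) and Csn3 at chr5:87925579-87932665 (plus strand), in the casein cluster. Prlr lies at chr15:10177238-10349180 (plus strand), Cited1 at chrX:102247381-102252181 (minus strand) and Aldh1a3 at chr7:66390890-66427517 (minus strand). The prolactin receptor acts through the kinase JAK2 and the transcription factor STAT5, which binds the palindrome TTCNNNGAA. Because Prlr and the caseins were read in the same cells, the windows before the start sites of the milk protein genes were searched for this motif, whose palindromic form covers both strands. Of 6 milk protein genes with a promoter in the RefSeq table (GRCm38.p6), 3 held the motif in the 250 bases before the start: Csn1s1, Csn2 and Glycam1. It was not found in those 250 bases of Csn1s2a, Wap and Lalba. Of all 32851 promoters in the table, 2306 (7.02%) held it. The 29 bases around it, with the motif in capitals and 10 bases on either side, are shown for the 2 caseins, at chr5:87699500-87699528 (minus strand) with its first base at -93 for Csn2 and at chr5:87666098-87666126 (plus strand) with its first base at -100 for Csn1s1. Positions before the start are counted from the RefSeq start, which for Csn1s1 is the first base of the gene given above but for Csn2 lies 205 bases inside it, so that the Csn2 sequence shown is before the RefSeq start and within the GENCODE gene. A match is a description of letters and not of binding. For Csn1s1 all 250 bases before the start (chr5:87665958-87666207, plus strand) are given as well.
Csn2: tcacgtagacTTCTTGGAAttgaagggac
Csn1s1: tttgtaacaaTTCTTAGAAtttatgtaaa
Csn1s1, 250 bases: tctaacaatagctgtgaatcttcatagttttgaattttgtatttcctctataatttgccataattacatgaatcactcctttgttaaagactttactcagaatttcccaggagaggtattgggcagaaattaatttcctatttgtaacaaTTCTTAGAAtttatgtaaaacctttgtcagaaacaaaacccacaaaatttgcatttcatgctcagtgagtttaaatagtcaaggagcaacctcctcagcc

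C1 cells held about as many UMIs as a C7 cell and a C3 cell together. The median UMI count per C1 cell was 16314 in PI 1 (range 3543 to 63187) and 11580 in PI 2 (range 2753 to 45107). The medians of C7 were 6483.5 and 5579 and those of C3 were 7179 and 5638. Their sums, 13662.5 and 11217, stood to the C1 median in a ratio of 1 to 1.19 in PI 1 and 1 to 1.03 in PI 2, and the mean UMI count of C1 was 1.03 and 0.968 times the sum of the C7 and C3 means. The ranges of UMIs per barcode overlapped widely. In PI 1 5 of 107 C1 cells (4.67%), and in PI 2 18 of 385 (4.68%), held fewer UMIs than the smallest C7 cell and the smallest C3 cell added together. C1 cells also had the most genes detected, with medians per cell of 4003 and 3272 against 2182 and 2000 in C7 and 2455 and 2056 in C3. When every cell was thinned to 3000 UMIs, the medians were 1398 and 1376 genes in C1, 1320 and 1307 in C7 and 1399 and 1341 in C3, so that most of the excess was gone at equal depth. The mitochondrial share of UMIs, with medians of 0.765% and 0.642% in C1, lay between those of C7 (0.561% and 0.516%) and C3 (0.904% and 0.760%).

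**Figure D2:**
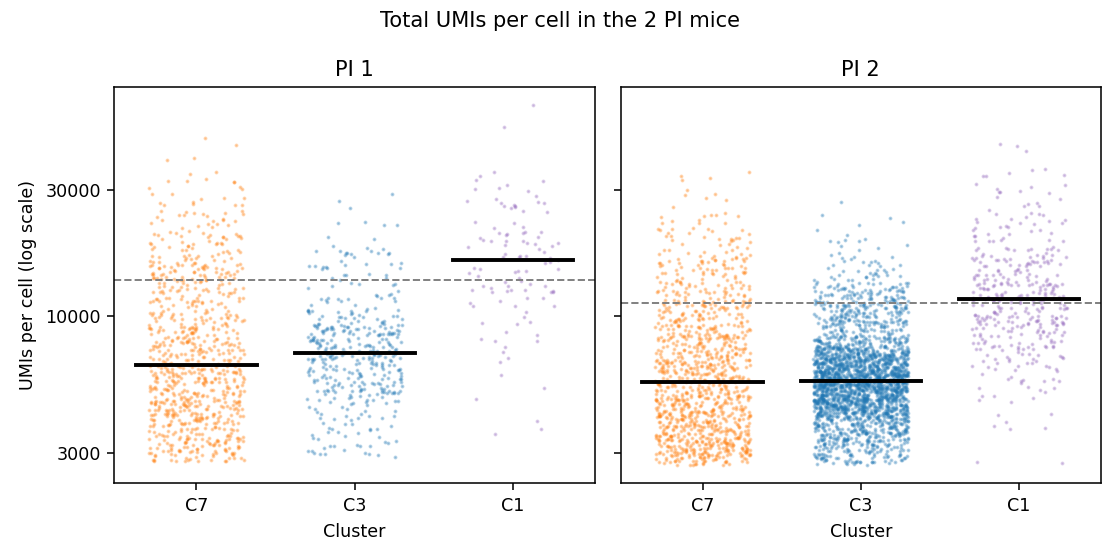
Total UMIs per cell (vertical axis, log scale) of the cells of C7, C3 and C1 in PI 1 (left) and PI 2 (right); each point is 1 cell, black bars are medians and the dashed line is the sum of the C7 and C3 medians. The C1 medians (16314 and 11580) lie at or above the dashed lines (13662.5 and 11217), and the C1 points spread from 2753 to 63187.

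C1 made up 7.38% of the cells of PI 1 (exact binomial 95% interval 6.09 to 8.85) and 9.18% of those of PI 2 (8.33 to 10.1). The 2 mice differed in make-up, since C7 was 56.9% and C3 28.4% of the cells of PI 1 while C7 was 26.3% and C3 59.3% of those of PI 2. There were thus 2.0 C7 cells per C3 cell in PI 1 and 0.443 in PI 2. Doubling the product of the C7 and C3 shares, which gives the share of C7 with C3 pairs among random pairs of cells, came to 32.3% and 31.2%, and the share of C1 over this value was 0.228 and 0.295. For C20, a cluster of the G mice that the authors set aside as likely doublets of C8 and C13, the same quotient was 0.144 and 0.285 at 3.65% and 6.82% of the cells. For C2, a cluster of the NP mice with the same name from the authors, it was 0.795 and 0.454 with C6 and C4 as the pair. The authors flagged C20 because it was rarer than their maximum doublet rate and highly similar to at least 2 other clusters of its samples. They report that no other cluster met these conditions. As further evidence on C20 they give a profile nearly the same as the average of C8 and C13, and high gene and molecule counts. C1, at 7.38% and 9.18%, was more frequent than the maximum doublet rate in both mice, but that rate lay within the interval of PI 1. A share of cells passing the sorter and the filters depends on both, and the share of droplets holding more than 1 cell was not measured here.

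Gene by gene, the content of a C1 cell was close to that of a C7 cell and a C3 cell added together. Of 5553 genes with at least 20 CPM in C1 of PI 1, 5449 (98.1%) had a mean UMI count per C1 cell within 1.5-fold of the sum of the means of C7 and C3, and in PI 2 this held for 5434 of 5457 genes (99.6%). The median ratio of C1 to the sum was 1.04 in PI 1 and 0.971 in PI 2. For Prlr the means were 24 UMIs per C1 cell against 21.1 for the sum in PI 1, and 21.5 against 19.9 in PI 2. For Cd14 they were 7.72 UMIs per C1 cell against 8.19 for the sum in PI 1, and 3.52 against 4.30 in PI 2. Both genes stood near the sum although the first came almost wholly from C3 and the second almost wholly from C7. For Csn2 the means were 11.4 UMIs per C1 cell against 11.7 for the sum in PI 1, and 9.96 against 12.2 in PI 2. For Cited1 they were 13.3 UMIs per C1 cell against 12.7 for the sum in PI 1, and 5.26 against 5.65 in PI 2. For Aldh1a3 they were 4.68 UMIs per C1 cell against 3.55 for the sum in PI 1, and 1.70 against 2.08 in PI 2, the gene of the 5 with the ratio farthest above 1 in PI 1. Scaling each cluster to its median UMI count instead of its mean left 91.7% of genes within 1.5-fold in PI 1.

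The same was seen for the genes that tell the 2 clusters apart. In PI 1 228 genes were at least 10-fold higher in CPM in C7 than in C3, and their level in C1 was 54.7% of that in C7 (median), while 188 genes at least 10-fold higher in C3 stood in C1 at 47.1% of the C3 level. In PI 2 the medians were 52.2% for 230 such C7 genes and 48.5% for 191 C3 genes. In UMIs per cell, the median ratio to the sum was 1.05 for C7 genes and 0.990 for C3 genes in PI 1, and 0.919 and 0.970 in PI 2. Both groups were therefore near their full content per cell and near the middle of their range in CPM. Summed, the 14 luminal progenitor genes gave 47.4 UMIs per C1 cell and 49.7 for the sum in PI 1, and 24.8 and 31 in PI 2. The 15 hormone-sensing genes gave 127 UMIs per C1 cell and 130.0 for the sum in PI 1, and 92.5 and 97.7 in PI 2. Across genes, the mean over cells of log2(UMIs + 1), not scaled for depth, was compared for genes with at least 0.1 UMIs per cell in the library. By this measure C1 followed the mean of C7 and C3 with a Spearman rho of 0.979 (7203 genes, PI 1) and 0.986 (6492 genes, PI 2). C7 followed C3 with 0.660 and 0.631. These values are across genes of shared libraries, and genes are not independent replicates. C2 of the NP mice had 98.8% and 99.1% of genes within 1.5-fold of the sum of C6 and C4. C20 of the G mice had 74.2% and 47.6% within it for C8 and C13. The median UMI counts of C20 were 12627 and 11121 where its pair summed to 17101.5 and 14736.5. Scaled to median UMI counts, the share was 81.3% and 89.98% in C20, beside 91.7% and 99.3% in C1. The rho with the mean of the pair was 0.987 and 0.985 for C2 and 0.978 and 0.987 for C20, close to that of C1.

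No gene lay clearly outside the range spanned by C7 and C3. Of 5979 genes with at least 20 CPM in any of the 3 clusters in both mice, 0 (0%) stood at least 1.5-fold above the higher of C7 and C3 in both mice, and 0 (0%) at least 1.5-fold below the lower. With a limit of 25% above or 20% below, tried after seeing the data, 6 genes stood above and 0 below. The gene farthest above was Sec24c, a coat component of vesicles leaving the endoplasmic reticulum, at 27 and 27.5 CPM in C1, which was 1.36 and 1.39 times the higher of the 2 clusters. It was followed by Ube2m at 107 and 110.0 CPM (1.37 and 1.29 times), by Cramp1l, Arl5a, Mau2 and Srf, and then, among others, by Ip6k1, Ppp1r14b and Ephb3. On the lower side stood Stoml2, at 0.756 and 0.823 times the lower cluster, Gm26699, the small heat shock protein gene Hspb1 (0.812 and 0.831 times), Pqbp1, Ntmt1, Acaa1a, Dcaf13, Hat1, Ube2w and Mrpl49. None of the 5 marker genes was among them. In PI 2 alone 4 genes passed the 1.5-fold limit above, Fabp4, Sparc, Hspa1b and Acta2, named after their values were seen, and in PI 1 alone 5 genes passed it above (among them Asxl1, Zfp687, Ddx58 and Usp19, likewise named afterwards) and 9 below. Counted the same way, basal C12 of the PI mice had 875 of 6498 genes above and 549 below the range of C7 and C3. C4, a further differentiated hormone-sensing cluster with 40 and 88 cells in these mice, had 32 of 6088 genes above and 122 below. C2 and C20 had 0 in either direction beside their own pairs. C7 had 360 and 813 outside the range of C1 and C3, and C3 had 504 and 785 outside that of C1 and C7. With C1 between them, C7 and C3 had to lie outside these ranges, so their counts add no contrast. With no gene beyond the span of C7 and C3 by this measure, the cells are called by their cluster number here and not by a state of their own.

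Within single barcodes, which can hold 1 cell or a pair, luminal progenitor genes or Csn2 were found together with hormone-sensing genes. At 3000 UMIs per cell, as the mean over all ways of thinning a cell, 49.3% of C1 cells of PI 1 (exact binomial 95% interval 39.7 to 59.4, n = 107 cells) and 43.9% of those of PI 2 (38.8 to 49, n = 383) held UMIs of both Cd14 and Prlr. The same pair was found in 10.9% and 13% of C7 cells, 7.70% and 7.13% of C3 cells, and 0% and 2.62% of C12 cells. A count of 0 of the 24 C12 cells of PI 1 at this depth allows a share of up to 12.5%. Intervals and limits cover counting error only, and the median depths before thinning were 16314 and 11580 UMIs in C1 but 3884 and 4427 in C12. In both mice the share in C1 lay above that in each of the other 3 clusters.

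Csn2 with Prlr was the most frequent pair, in 55% (45.2 to 64.8) and 62.5% (57.3 to 67.3) of C1 cells, against 11.1% and 16.3% in C7 and 2.03% and 2.51% in C3. Aldh1a3 with Prlr was found in 28.5% and 23.1% of C1 cells, against 5.10% and 6.83% in C7 and 0.150% and 0.432% in C3. Elf5, a regulator of alveolar cell fate, was found with Prlr in 24.3% and 18.4% of C1 cells. The pairs with Cited1 were less frequent, at 35% and 22.1% for Cd14 and 20.7% and 10.8% for Aldh1a3. Kit, a receptor of luminal progenitors, and Pgr, the progesterone receptor, both low in C1, were found together in 0.911% and 2.01% of cells. Taken singly, Prlr was detected in 93% and 97% of C1 cells, Csn2 in 58.8% and 64.8%, Cd14 in 54% and 45.5% and Aldh1a3 in 31.2% and 23.9%. Prlr was therefore found in nearly every C1 cell, and the share of each pair with Prlr stayed close to that of its luminal progenitor gene alone, while the pairs with Cited1 were well below it. Without thinning, Cd14 and Prlr were both detected in 85% and 78.4% of C1 cells.

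C1 cells were spread over the range between C3 and C7 rather than gathered at its middle. For each cell at 3000 UMIs the UMIs of the 14 luminal progenitor genes were taken as a share of those plus the UMIs of the 15 hormone-sensing genes, averaged over 100 thinning draws. The median share was 23.1% in C1 of PI 1 (quartiles 12 to 38.2) and 15.7% in C1 of PI 2 (7.36 to 28.8). It was 82.1% and 76.7% in C7 and 0.0259% and 0% in C3. Most C1 cells thus stood nearer to C3 than to C7 on this scale, on which the pooled UMIs of a C7 and a C3 cell added together give 27.7% and 24.1% and the pooled UMIs of C1 gave 27.2% and 21.2%. A share between 25% and 75% was found in 47.2% and 31.3% of C1 cells, in 38.2% and 46.2% of C7 cells and in 0.0914% and 0.0887% of C3 cells. Luminal progenitor UMIs were missing at this depth in 1.81% and 6.50% of C1 cells, and hormone-sensing UMIs in 0.00935% and 0.00522%, as means over the draws. In C3 the luminal progenitor UMIs were missing in 54.5% and 58.9% of cells.

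**Figure D3:**
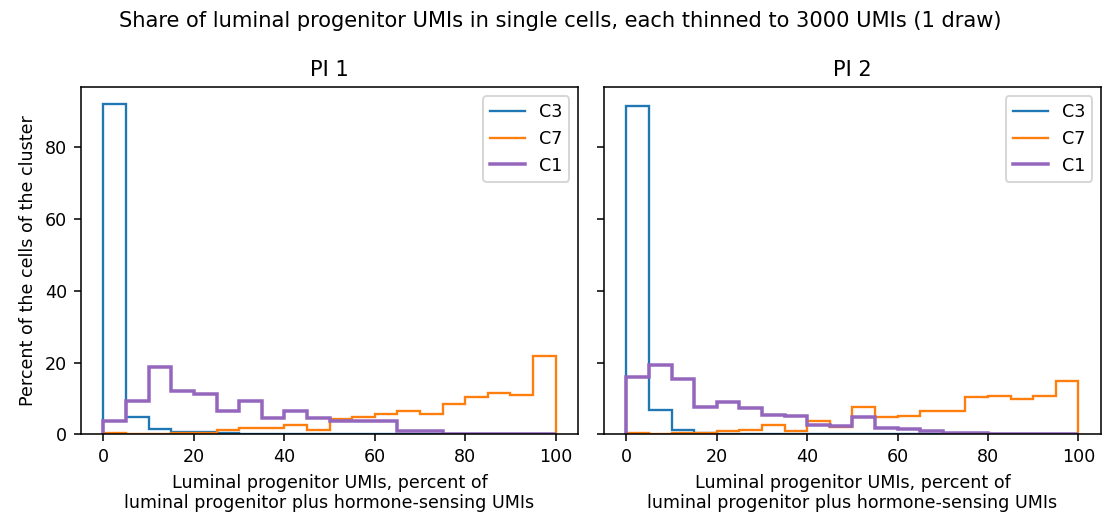
Distribution of the luminal progenitor share of luminal progenitor plus hormone-sensing UMIs per cell (horizontal axis, percent) among the cells of C3, C7 and C1 (vertical axis, percent of the cells of the cluster, bins of 5), for PI 1 (left) and PI 2 (right), with each cell thinned to 3000 UMIs in 1 of the 100 draws. C3 piles up near 0, C7 lies mostly above 50%, and C1 reaches from near 0 to about 75%, with more of its cells near the C3 end in PI 2.

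C1 cells at or below a depth limit, called shallow here, held both sets of genes too. The 90th percentile of UMIs over C7 and C3 cells of the same mouse was 17703.1 in PI 1 and 13772 in PI 2, and 61 (57.0%) and 259 (67.3%) of the C1 cells lay at or below it. Their median UMI counts, 12361 and 9523, were still above the medians of C7 and C3 in the same mouse. Only 6 of 107 and 19 of 385 C1 cells held fewer UMIs than the median C7 cell. In the shallow C1 cells Cd14 and Prlr were found together in 44.2% and 41.9% at 3000 UMIs, against 56% and 47.8% in the deeper C1 cells. The intervals of the 2 depth classes overlapped in both mice, from 31.5 to 57.6 and 41.1 to 71.1 in PI 1. The median luminal progenitor share was lower in the shallow cells, at 17.5% and 13.3%, than in the deep ones, at 30.4% and 22.9%. By level, Prlr stood at 1478 and 1919.9 CPM in shallow and 1288 and 1379 CPM in deep cells. Cd14 stood at 409 and 241 CPM in shallow and 454 and 297 CPM in deep cells. In both mice depth within C1 thus went with less Prlr and slightly more Cd14 in CPM. Cited1 was lower with depth as well, at 859 and 458 CPM in shallow and 690 and 350 CPM in deep cells. Aldh1a3 stood at 157 and 134 CPM in shallow and 331 and 126 CPM in deep cells. Csn2 stood at 668 and 673 CPM in shallow and 635 and 848 CPM in deep cells. Aldh1a3 and Csn2 thus each went opposite ways in the 2 mice. Whether C1 cells were single cells or pairs was not tested, since the counts carry no measure of it that is independent of depth and gene content.

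C1 of the 2 mice differed 2-fold or more in few genes. Of 3097 genes with at least 50 CPM in C1 of 1 mouse or both, 30 (0.969%) did so, with 1 mouse on each side and no replicate for the difference. The mice also differed in cycle stage, which cannot be told apart from other differences between them. Pcp4, a calmodulin-binding peptide, stood at 7.41 CPM in PI 1 and 227 in PI 2, and Aoc1, the histamine-degrading diamine oxidase, at 21.7 and 220.0. Acta2, the smooth muscle actin of basal cells, stood at 10.1 and 68 CPM, and 1 cell held 21.6% of its UMIs in C1 of PI 2. For Wfdc12, at 25.4 and 115 CPM, 1 cell held 27.0%. Tmem86a was likewise higher in PI 2, at 34.9 and 134 CPM. Higher in PI 1 were Apod, which encodes apolipoprotein D, at 85.7 and 13.7 CPM, and Plscr1, Cxcl5, Fam25c and Abcg1, with PI 2 at 0.236, 0.347, 0.375 and 0.414 times the level of PI 1. In C1 of PI 1, 1 cell held 26.5% of the Apod UMIs and 1 cell 39.1% of those of Cxcl5. Each gene named here differed in the same direction in whichever of C7 and C3 held more of it, such as Apod in C7 (121 and 20.3 CPM) and Aoc1 in C3 (63.3 and 473 CPM). These differences were thus not particular to C1. Markers of other cell types were few in C1. The 10 basal markers summed to 1.07 and 3.25 UMIs per C1 cell, 1.10 and 1.63 times the sum of C7 and C3, and the immune, endothelial, fibroblast and pericyte markers each to at most 0.452. Against the sum of C7 and C3 these low values were 1.06 and 0.613 times for immune, 1.18 and 1.76 times for endothelial, 1.86 and 1.91 times for fibroblast and 2.89 and 2.74 times for pericyte markers. Basal, endothelial, fibroblast and pericyte markers thus lay above the sum in both mice. The last 3 rest on few UMIs, at 0.168, 0.0654 and 0.0280 per C1 cell in PI 1, and no interval was made for these ratios.

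To ask how the clusters named hormone-sensing progenitors differed between the PI and NP mice, the UMIs of all C1 and C2 cells were summed per mouse, which gave 112 and 387 cells in PI (1950820 and 5045730 UMIs), 492 of them in C1, and 266 and 169 in NP (5178439 and 3460745 UMIs), nearly all in C2. Of 10692 genes tested with edgeR's quasi-likelihood F-test, 1778 (16.6%) passed a Benjamini-Hochberg adjusted p of 0.05, with 1024 (9.58%) higher and 754 (7.05%) lower in PI and a median log2 fold change over all genes of -0.02. At an unadjusted p under 0.05, 3302 genes passed. Values are given per mouse, with n = 2 mice per stage throughout, and adjusted p-values are from this fit. The luminal progenitor part of the profile differed between the groups as well. In C1 the genes at least 10-fold higher in C7 than in C3 stood at 54.7% and 52.2% of their C7 level, while in C2 the genes at least 10-fold higher in C6, the luminal progenitors of the NP mice, than in the differentiated cluster C4 stood at 37.3% and 34.8% of their C6 level, and genes of the hormone-sensing side at 47.1% and 48.5% in C1 but 62.9% and 69.4% in C2. The part of this in the results that follow was not tested. With 2 mice per stage the smallest p of an exact permutation test would be 0.333, so each call rests on the spread that edgeR shares across genes. Without NP 1 538 genes passed and without NP 2 476, while DESeq2 called 823. For the genes named below, calls of this comparison that were lost without 1 mouse are given as such.

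Milk protein genes were far higher in PI. Of the 8 listed, 6 passed the filter on low counts and rose, but several passed it through the PI mice alone and so had to differ, which leaves their count without weight as support. Csn1s1, alpha-S1-casein, stood at 2.90 and 1.44 CPM in the NP mice and 2513 and 3128 CPM in the PI mice, a log2 fold change of 10.24 ± 0.31 (SE, adjusted p = 2.18e-09). Csn2 had 3 UMIs in both NP mice together and 5061 in the PI mice, at 0.386 and 0.289 CPM in the NP mice and 627 and 760.4 CPM in the PI mice, a ratio of 2083 with a counting interval of 712 to 10104. Csn3, kappa-casein, was already present in NP, at 188 and 332 CPM in the NP mice and 3169.9 and 2951 CPM in the PI mice, a log2 fold change of 3.54 ± 0.27 (SE, adjusted p = 4.92e-06). The stages were far apart for these 3 caseins, of which Csn1s1 and Csn2 are the ones whose windows with the STAT5 motif are shown above. Csn1s2a, without the motif in its window, stood at 0.386 and 0.578 CPM in the NP mice and 267 and 424 CPM in the PI mice. Lalba, which encodes alpha-lactalbumin, rose by 3.75 and Wap, whey acidic protein, by 3.27 on the log2 scale, with Wap at 0.579 and 0.289 CPM in the NP mice and 3.08 and 5.55 CPM in the PI mice, a call lost without either NP mouse and below the filter without PI 2. Milk RNA free in the suspension can add UMIs to any cell, and its part was not tested. Csn2 stood at 6.90 and 9.27 CPM in C3 and 8.96 and 21.1 CPM in C12 of the same PI libraries, beside 648 and 763 CPM in C1.

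**Figure D4:**
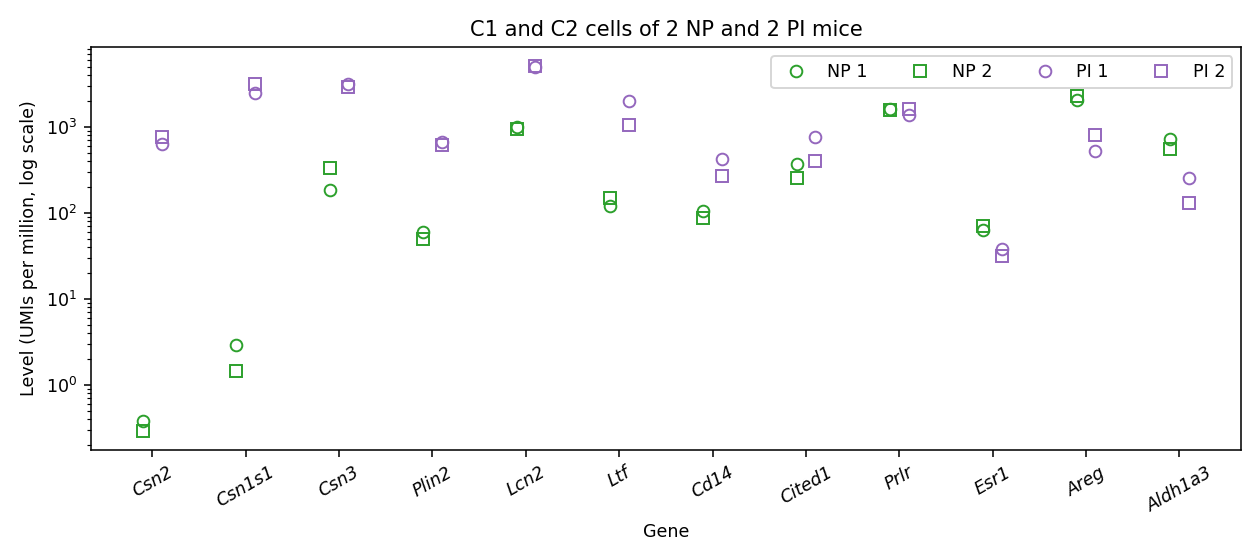
Levels in CPM (vertical axis, log scale) of 12 genes (horizontal axis) in the summed C1 and C2 cells of each mouse; green symbols are NP, purple symbols PI, circles replicate 1 and squares replicate 2. The PI mice lie above the NP mice from Csn2 to Cited1, overlap them for Prlr and lie below them for Esr1, Areg and Aldh1a3.

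Genes of milk fat synthesis and secretion rose with the caseins. Of 20 listed, 17 were tested, 14 rose and the other 3 did not pass, where 9.58% of all genes rose, with a median log2 fold change of 2.42 beside -0.02 for all genes. Of the 14, Cd36, Lpl, Fabp4 and Olah lay below the filter's level in 1 or both NP mice and passed it through the PI mice, so the count is a description. Without 1 mouse 10 to 13 rose. Plin2, the coat protein of lipid droplets, stood at 60.4 and 50 CPM in the NP mice and 678 and 617 CPM in the PI mice, a log2 fold change of 3.53 ± 0.15 (SE, adjusted p = 7.33e-08). Lipa, lysosomal acid lipase, stood at 5.60 and 6.07 CPM in the NP mice and 73.8 and 71 CPM in the PI mice, a log2 fold change of 3.63 ± 0.18 (SE, adjusted p = 3.25e-07). These 2 genes rose more than 10-fold with no overlap between the mice. Btn1a1, butyrophilin of the milk fat globule, rose by 3.45, Xdh, xanthine dehydrogenase, by 2.44, Scd1, a fatty acid desaturase, by 2.42 and Mfge8, a milk fat globule protein that binds dying cells, by 2.17 on the log2 scale. Fasn, fatty acid synthase, did not pass, at 12.9 and 11 CPM in the NP mice and 17.9 and 18.2 CPM in the PI mice (adjusted p = 0.0717), nor did Srebf1 and Lpin1. The call for Fabp4 rested on PI 2 and was lost without either NP mouse too, at 4.63 and 1.73 CPM in the NP mice and 0.513 and 48 CPM in the PI mice, and without PI 2 its log2 fold change was -2.66. The calls for Olah and Dbi were lost without either NP mouse, and that for Acaca without any single mouse.

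Most of the acute phase and involution genes tested rose. Of 20 listed, 17 were tested, 14 rose and 1 fell, where 9.58% of all genes rose and 7.05% fell. The median was 2.06 on the log2 scale, unchanged with Saa2, which had 0 UMIs in NP, set at its bound. The list shares Cd14 with the luminal progenitor genes and Mfge8 with the milk fat genes. Of the 14, Saa1, Saa2 and Lbp lay below the filter's level in 1 or both NP mice and passed it through the PI mice, so this count too is a description. Without 1 mouse 12 to 14 rose. Lcn2, the iron-binding lipocalin, stood at 999 and 958 CPM in the NP mice and 5062 and 5178 CPM in the PI mice, a log2 fold change of 2.38 ± 0.19 (SE, adjusted p = 7.18e-06). Ltf, lactoferrin, stood at 121 and 148 CPM in the NP mice and 2019.7 and 1049.8 CPM in the PI mice, a log2 fold change of 3.49 ± 0.27 (SE, adjusted p = 6.76e-06). Hp, haptoglobin, stood at 65.5 and 86.1 CPM in the NP mice and 1439.9 and 2431 CPM in the PI mice, a log2 fold change of 4.67 ± 0.28 (SE, adjusted p = 7.89e-07). The 3 secreted proteins rose with wide gaps between the stages. Lbp, which binds lipopolysaccharide, rose by 4.28, Igfbp5, a binding protein of insulin-like growth factors, by 1.86, the cathepsin Ctsc by 2.06 and Tgfb3 by 2.21 on the log2 scale. The complement gene C3 fell, at 66.4 and 37 CPM in the NP mice and 19.5 and 21.2 CPM in the PI mice, a log2 fold change of -1.35 ± 0.24 (SE, adjusted p = 0.00241), a call lost without NP 1, and this gene shares only its name with the cluster C3. Saa2, with 31 UMIs in the PI mice, was at least 12.8-fold higher against a floor of 3 UMIs over the NP group and was below the filter without PI 2. Saa1 and Saa2 are near copies whose reads the counting could split. Ctsb and Ctsl, lysosomal cathepsins, rose by 0.57 and 0.86, the first lost without either NP mouse and the second without NP 2. Stat3, a transducer of the involution signal, did not pass, at 177 and 182 CPM in the NP mice and 284 and 193 CPM in the PI mice, nor did Osmr.

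Hormone-sensing genes moved in both directions. Of 14 tested, 3 rose and 6 fell (9.58% and 7.05% of all genes), with a median of -0.41, while without NP 1 1 rose and 3 fell, and without NP 2 2 rose and 4 fell. Of the 6 that fell with all mice, Calca lay below the filter's level in 1 or both PI mice and passed it through the NP mice. This count and that of the ligands below are therefore descriptions. Prlr overlapped between the stages, at 1601 and 1578 CPM in the NP mice and 1379 and 1645 CPM in the PI mice, a log2 fold change of -0.08 ± 0.17 (SE, adjusted p = 0.794). Esr1, the oestrogen receptor, stood at 63.9 and 70.5 CPM in the NP mice and 37.9 and 31.9 CPM in the PI mice, a log2 fold change of -0.98 ± 0.16 (SE, adjusted p = 0.00137). Areg, a ligand of the epidermal growth factor receptor that acts downstream of oestrogen, stood at 2049.8 and 2306 CPM in the NP mice and 525 and 805 CPM in the PI mice, a log2 fold change of -1.72 ± 0.22 (SE, adjusted p = 2.87e-04). Esr1 and Areg were lower in both PI mice than in both NP mice, while Prlr overlapped. Without PI 1, the mouse in dioestrus, Esr1 differed by -1.05 and Areg by -1.42 on the log2 scale, and both still passed. Pgr did not pass, at 110.1 and 105 CPM in the NP mice and 72.3 and 102 CPM in the PI mice (adjusted p = 0.260). The surface protein genes Prom1 and Ly6a, used to divide hormone-sensing cells, went opposite ways: Prom1 stood at 60.4 and 50.9 CPM in the NP mice and 145 and 125 CPM in the PI mice, a log2 fold change of 1.26 ± 0.14 (SE, adjusted p = 9.65e-05), and Ly6a at 488 and 349 CPM in the NP mice and 119 and 191 CPM in the PI mice, a log2 fold change of -1.41 ± 0.21 (SE, adjusted p = 9.21e-04). Of the transcription factor genes, Msx2 rose by 0.91, a call lost without NP 1, and Tbx3 fell by 0.77 on the log2 scale, a call that held only without PI 1. Cited1 passed narrowly, at 376 and 258 CPM in the NP mice and 772 and 402 CPM in the PI mice, a log2 fold change of 0.86 ± 0.25 (SE, adjusted p = 0.0329), and lost the call without NP 1, without NP 2 and without PI 1. Of 10 ligands of hormone-sensing cells listed, 6 were tested, 3 fell and the other 3 did not pass. Those that fell were Areg, Wnt4, by 0.59 on the log2 scale with a call lost without either NP mouse, and Calca, at 113 and 46.5 CPM in the NP mice and 0 and 14.9 CPM in the PI mice with a call lost without NP 1, so that without NP 1 the count was 1.

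Luminal progenitor genes were also mixed. Of 14 tested, 6 rose and 3 fell (9.58% and 7.05% of all genes), with a median of 0.51, and without 1 mouse 4 to 6 rose and 2 to 3 fell. Of the 6 that rose with all mice, Itgb3 and Hey1 lay below the filter's level in 1 or both NP mice and passed it through the PI mice, so the count is a description. Cd14 stood at 107 and 86.7 CPM in the NP mice and 430.1 and 270.1 CPM in the PI mice, a log2 fold change of 1.83 ± 0.19 (SE, adjusted p = 6.31e-05). Elf5 stood at 22.8 and 25.1 CPM in the NP mice and 109.7 and 76.1 CPM in the PI mice, a log2 fold change of 1.92 ± 0.19 (SE, adjusted p = 3.39e-05). Aldh1a3 went the other way, at 736 and 552 CPM in the NP mice and 258 and 130.4 CPM in the PI mice, a log2 fold change of -1.77 ± 0.25 (SE, adjusted p = 5.40e-04). The 3 genes did not overlap between the stages. Hey1, a target of Notch signalling, rose by 3.61 from 3.09 and 0.867 CPM, Tspan8 by 1.08 and Ehf, a call lost without either NP mouse, by 0.59 on the log2 scale. Hmga1 fell by 1.08 and Creb5, a call lost without NP 1, by 1.07. Itgb3 rose by 1.68 from very low levels, a call lost when any single mouse was left out. Kit stood at 29.2 and 29.5 CPM in the NP mice and 21.5 and 31.7 CPM in the PI mice and did not pass. Of 11 Notch pathway genes listed, 7 were tested, Hey1 rose, Hes1, by 1.05 on the log2 scale, and Notch2 fell, and Notch1, Notch3, Jag1 and Rbpj did not pass. The Notch2 call was lost without NP 1, without NP 2 and without PI 2.

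Of 10 genes of the prolactin signalling chain 3 passed, beside 16.6% of all genes. Among them 2 rose, Elf5 and Socs2, and 1 fell, Socs3. Socs2, a feedback inhibitor induced by STAT5, stood at 51 and 65.3 CPM in the NP mice and 145 and 143 CPM in the PI mice, a log2 fold change of 1.30 ± 0.16 (SE, adjusted p = 1.72e-04). Socs3, a feedback inhibitor induced by STAT3, stood at 296 and 311 CPM in the NP mice and 161 and 199.8 CPM in the PI mice, a log2 fold change of -0.75 ± 0.15 (SE, adjusted p = 0.00529), and lost the call without either NP mouse. Jak2, Stat5a, Stat5b, Cish, Socs1, Nfib and Prlr did not pass, with Stat5a at 41.7 and 52.6 CPM in the NP mice and 57.9 and 49.3 CPM in the PI mice (adjusted p = 0.551). The receptor, the kinase and both STAT5 genes thus gave no call at this depth and number of mice.

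In the other gene groups listed most genes did not pass. Of 11 antigen presentation genes tested 5 rose, beside 9.58% of all genes, and the other 6 did not pass. Of the 5, H2-Eb1 lay below the filter's level in 1 or both NP mice and passed it through the PI mice, so the count is a description. The class I genes H2-K1 and H2-D1, which are close paralogues, rose by 0.85 and 0.78 and the immunoproteasome genes Psmb8 and Psmb9 by 0.77 and 0.75 on the log2 scale, and the class II gene H2-Eb1 stood at 2.32 and 2.02 CPM in the NP mice and 7.18 and 5.75 CPM in the PI mice. Psmb8 was the only one of these calls that held without NP 1, no call held without NP 2, and that for H2-Eb1 was lost without any single mouse. Of 10 luminal keratin and adhesion genes 9 did not pass and Cdh1, which encodes E-cadherin, fell, at 394 and 387 CPM in the NP mice and 276 and 279 CPM in the PI mice, a call lost without either NP mouse. Krt8 and Krt18, the luminal keratins, did not pass, with Krt8 at 4989 and 3906 CPM in the NP mice and 5215 and 5196 CPM in the PI mice. Of 10 cell division genes Cdk1 rose and Aurka fell, both low, where the Cdk1 call was lost or below the filter whichever mouse was left out and the Aurka call was lost without NP 2. Of 15 dissociation stress genes Hspa1a, a close copy of Hspa1b, and Nr4a1 rose and Jun and Btg2 fell, and none of these calls held without NP 2, that for Nr4a1 alone held without NP 1, and those for Hspa1a and Jun were lost without PI 1 as well. The 2 cell division and 4 stress calls stand beside 16.6% called among all genes. Cdk1 lay below the filter's level in 1 or both NP mice, and the basal marker Krt5 in 1 or both PI mice, so these calls too are descriptions. Of 9 basal markers Krt5 fell, a call lost without NP 1, without NP 2 and without PI 1, and the other 8 did not pass, while without PI 2 5 fell and without PI 1 2 rose, with Acta2 at 65.5 and 35.8 CPM in the NP mice and 9.74 and 68 CPM in the PI mice. Of the markers of other cell types, the endothelial gene Eng fell, at 15.8 and 21.4 CPM in the NP mice and 8.71 and 8.52 CPM in the PI mice, a call lost without NP 2. The 1 immune marker and 4 fibroblast markers that could be tested did not pass, and pericyte markers were too low to test, with the defining genes Ptprc, Pecam1, Pdgfra and Pdgfrb all below the test's filter.

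The genes with the largest changes were not all milk genes. Beside Csn2, Csn1s1 and Csn1s2a, Spp1, which encodes osteopontin, stood at 0.386 and 3.76 CPM in the NP mice and 771 and 1354 CPM in the PI mice, a log2 fold change of 9.21 ± 0.49 (SE, adjusted p = 3.27e-07). Cel, bile salt-stimulated lipase of milk, stood at 0.579 and 0.578 CPM in the NP mice and 62 and 44.2 CPM in the PI mice, a log2 fold change of 6.40 ± 0.34 (SE, adjusted p = 3.27e-07). Pdk4, a kinase that holds back glucose oxidation, stood at 6.95 and 6.65 CPM in the NP mice and 293 and 521 CPM in the PI mice, a log2 fold change of 5.90 ± 0.30 (SE, adjusted p = 3.27e-07). All 3 were low in NP and many-fold higher in both PI mice. Cyp24a1, the vitamin D 24-hydroxylase, rose by 5.64, Hp by 4.67 and Aoc1, which was uneven between the PI mice, by 4.48 on the log2 scale, the last a call lost without either NP mouse. Slc39a8, a zinc and manganese importer, had 1 UMI in the NP mice and 163 in the PI mice, a ratio of 201 with a counting interval of 35.6 to 7998. Among the largest falls, Gm17416 had 304 UMIs in the NP mice and 0 in the PI mice, at least 82.1-fold lower against a floor of 3 UMIs over the PI group, and Sbp had 685 and 3 UMIs, a ratio of 185 with an interval of 63.0 to 899. Egln3, a prolyl hydroxylase that senses oxygen, stood at 83.4 and 69.1 CPM in the NP mice and 8.20 and 10.9 CPM in the PI mice, a log2 fold change of -2.93 ± 0.19 (SE, adjusted p = 1.25e-06). Tnip3, an inhibitor of NF-kB signalling, stood at 87.5 and 96.8 CPM in the NP mice and 15.9 and 12.7 CPM in the PI mice, a log2 fold change of -2.74 ± 0.18 (SE, adjusted p = 1.25e-06). 3110079O15Rik fell by 4.03, the chemokine gene Ccl5 by 3.95, R3hdml by 3.29, Calca by 3.01, Nme2, which has the close copy Nme1, by 2.84 and Sdpr by 2.79 on the log2 scale.

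The change from NP to PI was then compared with that of luminal progenitors (C6 and C7) and of differentiated hormone-sensing cells (C4 and C3) in 1 edgeR quasi-likelihood fit with the mouse as a term. Of 11743 genes tested, 417 (3.55%) changed differently in C1 and C2 cells than in luminal progenitors, 190 upward (1.62%) and 227 downward (1.93%), and 449 (3.82%) differently than in differentiated cells, 317 upward (2.70%) and 132 downward (1.12%). At an unadjusted p under 0.05, 1865 and 1970 genes passed. Without NP 1 139 and 177 genes passed and without NP 2 99 and 231. The metallothionein gene Mt2 changed by -0.81 on the log2 scale in C1 and C2 cells, a call lost without NP 2, and by 1.53 in luminal progenitors, a difference of -2.39 ± 0.12 (SE, adjusted p = 1.42e-10). Pdk4 changed by 5.90 in C1 and C2 cells and 2.33 in differentiated cells, a difference of 3.51 ± 0.24 (SE, adjusted p = 2.01e-08). Csn1s1 changed by 10.24 in C1 and C2 cells, 9.17 in luminal progenitors and 6.31 in differentiated cells, a difference of 4.01 ± 0.58 (SE, adjusted p = 1.58e-04) from the last. Csn1s1 thus rose in all 3 cell types, and its difference from luminal progenitors, 1.07 ± 0.34 (SE, adjusted p = 0.0883), did not pass. Of the 14 luminal progenitor genes, 5 changed more upward than in differentiated cells, and against luminal progenitors 0 passed, with 8 past an unadjusted p of 0.05. Of the 17 milk fat genes 11 changed more upward and 1 more downward than in differentiated cells, and against luminal progenitors 0 passed, with 7 past an unadjusted p of 0.05. Of the 14 hormone-sensing genes, 3 changed more upward and 1 more downward than in luminal progenitors and 2 more downward than in differentiated cells. Genes that differed from both cell types in the same direction numbered 9, C2cd4b, C3, Car2, Cck, Crabp2, Csn3, Fabp5, Irx1 and Tnip3, of which 8 changed more upward and only Csn3 kept both calls whichever mouse was left out, while 77 lay between, above the change of 1 cell type and below that of the other.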

How the data were processed

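Mammary cells of 8 mice were profiled with a droplet 3' single-cell protocol, and the PI, NP and G libraries are used here. The deposited counts are UMIs per gene and barcode that the authors made with Cell Ranger on mm10, with STAR named among the tools in the submitters' processing notes and versions not given in the sources used here. The authors' per-cell table gave cluster numbers, quality flags and the mitochondrial fraction of UMIs, which its header calls a percentage but which is stored as a share. Barcodes, 27998 genes (121 share a symbol and were kept apart by identifier) and annotation were joined per library, and 1 barcode of the PI 2 counts had no match in the annotation. No doublet caller was run on cells, beyond the sorter's gate and the authors' removal of C20.

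UMIs were summed per mouse and class and tested with edgeR 4.0.16 in R 4.3.3 (TMM, filterByExpr with a minimum count of 10, quasi-likelihood F-test, Benjamini-Hochberg threshold 0.05), after checks on simulated data, with DESeq2 1.42.0 as an alternative. Thinning to 3000 UMIs left out 2 C1 cells. Intervals are exact binomial at 95%, and limits use 3 counts. Other values and the plots were made in Python 3.11.15 (matplotlib 3.10.9, pandas 2.3.3, scipy 1.17.1, numpy 2.4.6). Positions are from GENCODE and promoters from RefSeq, both on GRCm38. Named genes were the list members, the 10 largest rises and falls at 20 CPM or more without overlap, the 10 genes farthest outside C7 and C3 on each side, the 5 most uneven between the PI mice each way and the 5 with the smallest p of each interaction term. Some genes that these rules name are not reported here. C1, the lists and these rules were chosen with earlier results of these data known. PI and NP mice carry replicate numbers 1 and 2, but the labels do not say that equal numbers share a batch, so the fit has no block. Each library is 1 mouse, run as its own library, so that mouse and library cannot be told apart.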

Additional observations from a re-analysis of the deposited data

Results flagged for a closer look

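C1 and C2 cells and luminal progenitors changed differently from NP to PI for 417 genes, and so did C1 and C2 cells and differentiated hormone-sensing cells for 449, by the test of the difference itself in edgeR. Differences are given on the log2 scale as the change in C1 and C2 cells minus the change in the other cell type, with n = 2 mice per stage. With the smallest p-values against luminal progenitors, the metallothionein genes Mt2 and Mt1 differed by -2.39 and -2.10, the linker histone gene H1f0 by 3.00, the surface protein gene Cd200 by -2.68 and the haptoglobin gene Hp by -3.12. Against differentiated cells, Bglap3 differed by -4.58, the phosphodiesterase gene Pde4b by 2.79, Pdk4 by 3.51, Mfge8 by 2.03 and Lrg1 by 2.01.

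Among the genes that mark C1, Cited1 differed from luminal progenitors by 1.35, and Aldh1a3, Cd14 and Csn2 differed from differentiated cells by 2.39, 1.84 and 6.11, the last a call lost without NP 2. Of the other genes shown by mouse, Esr1 differed from luminal progenitors by -2.37 and Areg by 0.85. Csn1s1 differed from differentiated cells by 4.01 and Lcn2 by 2.45, and Csn3 differed by 2.25 from differentiated cells and by 0.89 from luminal progenitors. Socs2 differed from luminal progenitors by 1.01, a call lost without NP 1, and from differentiated cells by -0.81, a call lost without NP 2. Genes that differed from both in the same direction numbered 9.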

How the results depend on the processing

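In the comparison of PI with NP, 1778 genes were called. The count was 2315 of 16544 without the filter on low counts, 1642 with a replicate block and 1735 with C1 alone in PI and C2 alone in NP. It was 127 with edgeR's test of a log2 fold of at least 1, 1159 in cells at or below the depth limit, 525 of 6585 genes with cells thinned to 3000 UMIs and 823 in DESeq2. Without 1 mouse it ranged from 476 to 1960, lowest without NP 2 (476) and NP 1 (538). The calls shared with the reported fit were 466 of 476, 527 of 538, 805 of 823 and 1551 of 1642 (replicate block), and no shared call changed sign. Without the filter, and without PI 2, edgeR gave every gene the spread of the trend, so that p-values there take no account of a gene's own spread. Same-numbered mice did not deviate together (correlation -0.05), which with 2 pairs says only that they share a number. The block lost 7 of 87 calls among the named genes, Itgb3, Fabp4, Acaca, Notch2, Cdk1, Hspa1a and Krt5.

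The genes whose change differed from luminal progenitors (417) ranged from 99 to 361 without 1 mouse, with 139 without NP 1 and 616 without the filter, and those that differed from differentiated cells (449) from 177 to 518, with 231 without NP 2 and 643 without the filter. Fabp4 changed from 3.11 to -2.66 on the log2 scale without PI 2 (adjusted p = 0.169), with a range up to 3.97 without 1 mouse, and the difference of Cd36 from differentiated cells from 4.37 to -0.77 without NP 2 (adjusted p = 0.882), with a range up to 8.68. The cause of these was not tested.

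The 0 genes above and below the span of C7 and C3 became 6 above at a limit of 25% or 20%, and 310 above and 236 below at any fold (chosen after seeing the data). In 1 mouse alone they ranged from 4 to 5 above and from 0 to 9 below. The share of genes near the sum was 91.7% and 99.3% when scaled to medians, and 85.9% and 93.2% at the narrower limit. Cells with Cd14 and Prlr were 85.0% and 78.4% unthinned, 36.1% and 31.9% at 2000 UMIs, and 19.3% and 16.3% with 2 UMIs of each gene required.

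With 2 mice per stage and 107 C1 cells in the mouse with fewer cells, genes under about 20 CPM were outside the descriptions of C1 beside C7 and C3, and a gene missing a call is not shown to be equal between stages. Leaving 1 mouse out leaves a stage with 1 mouse, which is then assumed to vary like the others.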
